A study of Mus musculus with 32 samples.

Results

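Immediate-early genes are transcribed within minutes of a stimulus, without new protein synthesis, and many of them encode transcription factors. The AP-1 factor is a dimer of JUN proteins with FOS, ATF or related partners that binds DNA through a basic leucine zipper (bZIP), and in cells with a mutant Braf the MAP kinase cascade is a known driver of its genes. Here 10 genes of this kind were followed: the JUN family genes Jun, Junb and Jund, the FOS family genes Fos, Fosl1 and Fosl2, the bZIP gene Atf3, the zinc finger gene Egr1, and Ier2 and Ier3. They were taken by symbol through their Ensembl identifiers, and all 10 were among the 12451 genes of the count table.

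The cells were YUMM3.3, a Braf mutant mouse melanoma line grown in 6-well plates, either untreated or incubated with Activin-A at 40 ng/ml, with interferon-γ (IFN-γ) at 20 ng/ml, or with both at these doses. The Activin-A dose is that of the labels and the methods, and figure legends of the study give a higher one. Activin-A is a TGF-β family ligand that signals through SMAD2 and SMAD3, and IFN-γ signals through JAK kinases. RNA was taken at 4 and 12 hrs from 4 wells of each of the 8 groups, 32 wells in all, and sequenced by BRB-seq, a 3' method in which barcoded samples are pooled. No other line was used, and the labels do not say that the 4 wells of a group were separate cultures, so the p-values measure the spread between these wells, which may be technical. Between 4 and 12 hrs the time with the ligand, the time in culture and any difference of plate or harvest cannot be told apart. The comparisons against untreated wells at one time share those 4 wells. No well was taken before 4 hrs, so an early rise that had ended by then could not be seen. A gene that did not pass may still have responded earlier.

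A well held 654539 to 1455074 counts (median 988020), and 3 counts, the upper limit that a count of 0 allows, correspond to 2.06 to 4.58 library-size scaled counts (CPM). Of the 8 melanocyte lineage genes looked for as markers, 8 were in the table, with a summed level of 323 to 463 CPM over the wells. Of 6 leukocyte markers, 2 were in the table, at a summed 0 to 15.3 CPM, and of 3 endothelial and 3 keratinocyte markers there were 0. The 4 mesenchymal markers, which dedifferentiated melanoma can share, summed to 39.7 to 83.8 CPM. At 12 hrs this sum was 59.4 to 67.8 CPM in untreated wells, 59.5 to 82.8 with Activin-A, 47.5 to 53.2 with IFN-γ and 40.7 to 47.6 with both, so the last groups lay below the untreated one. Of its 2 genes tested, Col1a1, a collagen gene, fell with both ligands at 12 hrs. Over all wells Col1a1 held 1282 counts, Pdgfra 424, Pdgfrb 177 and Dcn 23, so the sum mostly followed Col1a1. Whether the sum reflects a mix of cells or the expression of Col1a1 was not tested. The treatments were checked on genes known to respond: IFN-γ raised Irf1 with a log2 fold change (log2FC) of 4.22 at 4 hrs and 3.96 at 12 hrs, and Activin-A raised Ccn2 by 1.77 and 1.88. Well 1 of Activin-A at 4 hrs stood apart from its group. Its counts differed from those of the other wells of that group by a chi-squared of at least 2.45 per gene, where no other pair of wells of a group exceeded 1.54. For the immediate-early and AP-1 genes named at the start, calls that this well changes are given with and without it. For the other genes named, no value without this well is given, so whether it changes their calls was not tested.

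The levels of the 10 genes in each well are given in CPM after TMM scaling, and changes as log2FC ± SE from edgeR's quasi-likelihood test. A gene was called at a Benjamini-Hochberg adjusted p below 0.05 over all genes tested. Fos, with 0 to 11 counts in a well, did not pass the filter on low counts, and the other 9 genes were tested in every comparison. The plot of the 10 genes by well shows that Junb, Egr1 and Ier2 lay lower at 12 than at 4 hrs, and that Junb lay higher with IFN-γ at both times.

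**Figure D1:**
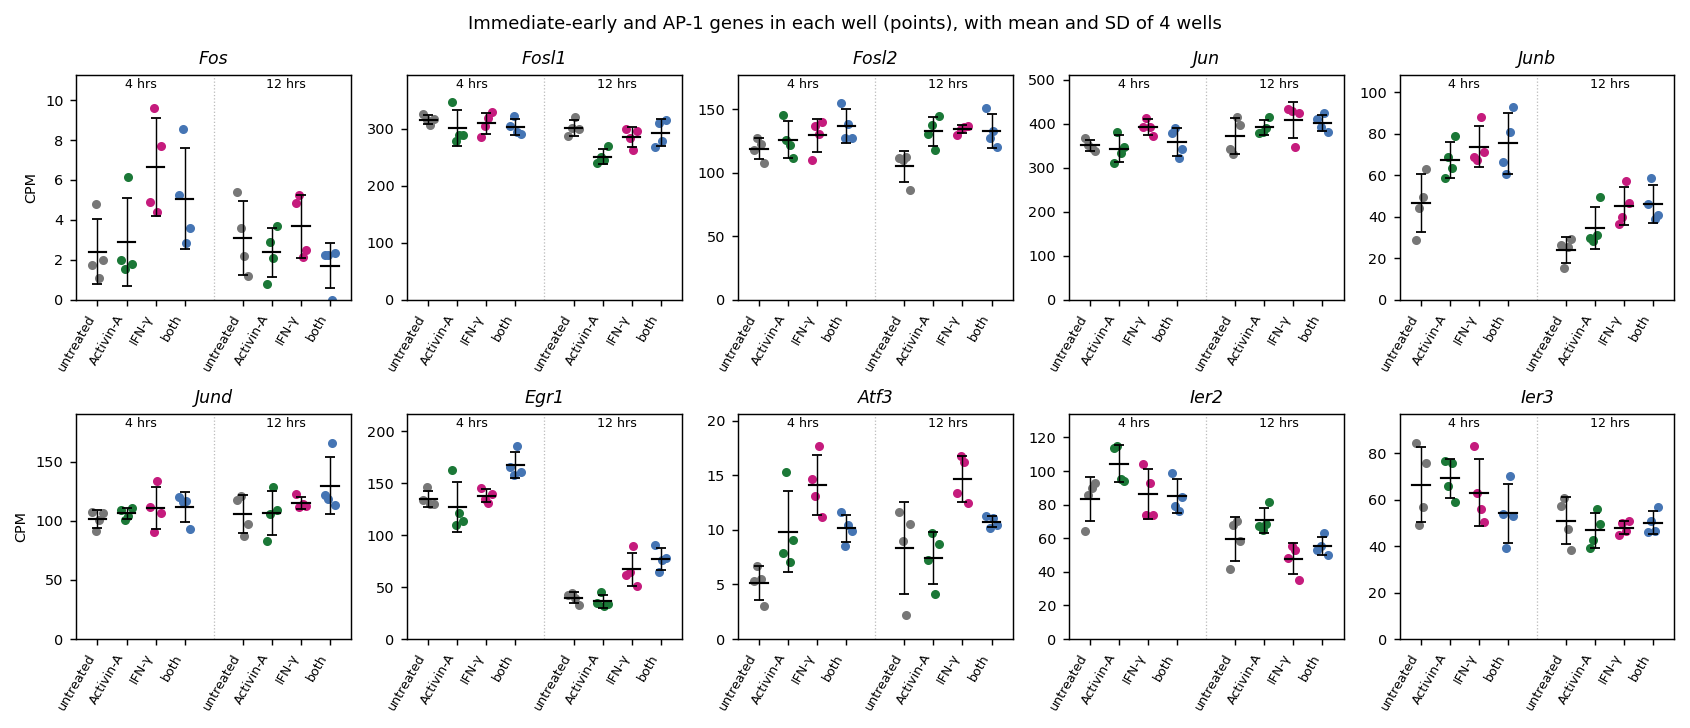
Level of each immediate-early and AP-1 gene in CPM (vertical axis, linear, from 0) in the 4 wells of each treatment at 4 and 12 hrs (points), with mean (line) and SD (bars). Egr1 falls from a mean of 135 CPM in untreated wells at 4 hrs to 39.9 CPM at 12 hrs, whereas Jun stays between 344 and 409 CPM in all 8 group means.

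Junb, whose protein is an AP-1 subunit that dimerises with FOS proteins, rose with IFN-γ at both times. At 4 hrs it measured 29.0, 44.3, 49.4 and 62.9 CPM in untreated wells and 68.6, 67.1, 88.2 and 71.1 CPM with IFN-γ. Each IFN-γ well lay above each untreated well, and the log2FC was 0.67 ± 0.16 (adjusted p = 0.00368). Without untreated well 1, the lowest of its group, the log2FC was 0.49 and no longer passed (adjusted p = 0.0871). With both ligands Junb measured 66.4, 60.6, 81.0 and 92.9 CPM, and the log2FC against untreated was 0.72 ± 0.16 (adjusted p = 0.000869), although 1 of these wells lay within the untreated range. At 12 hrs untreated wells measured 26.3, 15.2, 25.3 and 29.2 CPM. The IFN-γ wells at that time measured 36.4, 39.7, 57.3 and 46.6 CPM, and wells with both ligands 46.3, 58.6, 38.7 and 40.8 CPM. Neither of these groups overlapped the untreated wells, with a log2FC of 0.92 ± 0.19 for IFN-γ (adjusted p = 0.000168) and 0.95 ± 0.20 for both (adjusted p = 0.000132). The mesenchymal marker sum was lower in these groups, and its part in this and the other 12 hrs results with IFN-γ was not tested. In bulk RNA, more cells with a transcript and more of it per cell cannot be told apart.

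With Activin-A alone at 4 hrs, Junb measured 58.7, 68.9, 63.5 and 78.9 CPM, of which 3 wells exceeded all untreated wells. Its log2FC was 0.54 ± 0.16 and missed the threshold (adjusted p = 0.0667), and without well 1 of Activin-A it was 0.62 and passed (adjusted p = 0.0306). Without untreated well 4 it also passed (log2FC 0.74, adjusted p = 0.0118), as it did with all wells and no filter on low counts (0.54, adjusted p = 0.0417). Without untreated well 1 the log2FC was 0.36 (adjusted p = 0.399), and over the 8 refits the adjusted p ran from 0.0118 to 0.399. At 12 hrs Activin-A gave a log2FC of 0.50 ± 0.21 (adjusted p = 0.266). The body of Junb overlaps Prdx2 on the opposite strand, and whether the counting used strand is not given in the sources used here. Prdx2 had a log2FC of -0.05 with IFN-γ at 4 hrs and -0.02 at 12 hrs (adjusted p = 0.879 and 0.923).

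Jun, the founding AP-1 subunit, and Jund, a subunit known for steady expression in resting cells, passed in 0 of the 20 comparisons by edgeR and 0 by DESeq2. At an unadjusted p below 0.05 there were 4 comparisons for Jun and 2 for Jund. Jun measured 339 to 367 CPM in untreated wells at 4 hrs and 372 to 414 CPM with IFN-γ. These wells did not overlap, but the log2FC was 0.17 ± 0.08 (adjusted p = 0.267). At 12 hrs the same comparison gave 0.15 ± 0.07 (adjusted p = 0.224). Jund had group means of 102 to 130 CPM, and its largest log2FC, with both ligands against Activin-A at 12 hrs, was 0.31 ± 0.11 (adjusted p = 0.0722). The 8 group means of Jun spanned 344 to 409 CPM, and in their order the wells of each neighbouring pair of groups overlapped. Jund passed for both against Activin-A at 12 hrs with no filter on low counts (0.32, adjusted p = 0.0485), and without well 3 of Activin-A (0.42, adjusted p = 0.0148) or well 4 of both (0.37, adjusted p = 0.0431). Without well 3 of both the same value was 0.17 (adjusted p = 0.534) and without well 1 of Activin-A 0.19 (adjusted p = 0.440). Jun passed from 4 to 12 hrs under Activin-A without well 2 at 4 hrs (0.24, adjusted p = 0.0450).

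The promoters of Junb and Jun are shown because Junb was called with IFN-γ and its paralogue Jun was not, a difference between the genes that was not itself tested. The 250 bases before the RefSeq start are given 5' to 3' on the gene's strand (GRCm38.p6), in lower case, with matches to the motifs below in capitals. The window is chr8:84978749-84978998 on the minus strand for Junb and chr4:95052223-95052472 on the minus strand for Jun.
Junb: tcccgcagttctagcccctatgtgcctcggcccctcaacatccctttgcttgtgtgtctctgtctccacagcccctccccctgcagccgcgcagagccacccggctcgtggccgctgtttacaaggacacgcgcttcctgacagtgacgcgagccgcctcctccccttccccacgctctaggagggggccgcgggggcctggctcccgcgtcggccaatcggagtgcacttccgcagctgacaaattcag
Jun: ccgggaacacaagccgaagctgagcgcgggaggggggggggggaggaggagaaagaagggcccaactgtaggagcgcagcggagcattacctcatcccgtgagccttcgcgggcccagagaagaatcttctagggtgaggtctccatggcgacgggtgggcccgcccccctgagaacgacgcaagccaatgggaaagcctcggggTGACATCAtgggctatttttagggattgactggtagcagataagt
Both strands were searched for the CArG box, to which SRF binds, the cAMP response element TGACGTCA, the AP-1 site TGACTCA and its variant TGACATCA, the Smad box GTCTAGAC and the gamma-activated site TTCNNNGAA, an element of IFN-γ responsive genes. The AP-1 variant was found in Jun, 38 to 45 bases before the start, and no motif was found in the Junb window or in those of Fos, Fosl2, Jund, Atf3 and Ier3. The Jund window ends at base 70697738 of its chromosome, well before the annotated gene start at 70698949. Those of Fosl2 and Atf3 lie inside the annotated gene. Bases farther upstream than 250 were not searched, so an element there, or at another start, would be missed. Of 32851 promoter windows of the same length, 2.93% held the AP-1 variant, 4.46% the AP-1 site, 1.47% the CArG box, 1.55% the cAMP response element, 0.167% the Smad box and 7.02% the gamma-activated site. Promoters of 7 of the 10 genes were in the table, and Fosl1, Egr1 and Ier2 were not among them. In GRCm38 Junb lies at chr8:84974484-84978718 and has 1 or 2 exons, and Jun at chr4:95049034-95052222 has 1.

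Among FOS family genes, Fos was near the floor of detection, Fosl1 fell with Activin-A at 12 hrs and Fosl2 rose with IFN-γ at 12 hrs. Fos, the classical partner of JUN proteins, had 2, 5, 1 and 2 counts in untreated wells at 4 hrs and 4, 11, 3 and 9 counts with IFN-γ. Tested without a filter on low counts, its log2FC was 1.48 ± 0.54 (adjusted p = 0.133), and its smallest adjusted p over the 20 comparisons was that value. At 12 hrs a well held 0 to 7 counts of Fos.

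Fosl1, encoding the FOS-related subunit FRA-1, measured 287, 302, 320 and 299 CPM in untreated wells at 12 hrs and 239, 251, 246 and 270 CPM with Activin-A. The groups did not overlap and the log2FC was -0.27 ± 0.07 (adjusted p = 0.0194). Against Activin-A alone, wells with both ligands were at 269, 311, 279 and 316 CPM, of which 3 exceeded all Activin-A wells (log2FC 0.23 ± 0.08, adjusted p = 0.0334). By DESeq2 neither passed (adjusted p = 0.0713 and 0.129), and the second did not with upper-quartile scaling (adjusted p = 0.115). The first was also lost without untreated well 2 or 3 or Activin-A well 1 or 3 (adjusted p = 0.0514 to 0.123), and the second without Activin-A well 1, 2 or 3 or well 2 or 4 of both (adjusted p = 0.0606 to 0.152). At 4 hrs Fosl1 gave a mean of 316 ± 8.12 CPM in untreated wells and 301 ± 31.5 CPM with Activin-A (SD, n = 4). Well 1 of Activin-A, which stands apart, measured 348 CPM, and the other 3, at 279 to 289 CPM, lay below all untreated wells (306 to 326 CPM). The log2FC was -0.05 with this well (adjusted p = 0.866) and -0.14 without it (adjusted p = 0.524).

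Fosl2, encoding the FOS-related subunit FRA-2, measured 111, 110, 112 and 86.5 CPM in untreated wells at 12 hrs and 130, 135, 136 and 137 CPM with IFN-γ. All IFN-γ wells were higher, with a log2FC of 0.34 ± 0.10 (adjusted p = 0.0146). With both ligands Fosl2 measured 151, 127, 133 and 120 CPM, a log2FC of 0.33 ± 0.10 (adjusted p = 0.0272). Activin-A alone gave 131, 137, 118 and 145 CPM, also above all untreated wells, but did not pass (log2FC 0.32 ± 0.10, adjusted p = 0.0752). These 3 comparisons share their untreated wells, of which well 4 was the lowest. Without it the log2FC was 0.28 for IFN-γ and 0.26 for both (adjusted p = 0.0995 and 0.144). The IFN-γ call was also lost without IFN-γ well 4 (adjusted p = 0.0523) and that of both without its well 1 or 3 (adjusted p = 0.170 and 0.0545). Activin-A passed without its well 3 (0.37, adjusted p = 0.0441), and by DESeq2 neither IFN-γ nor both passed with all wells (adjusted p = 0.0911 and 0.118), nor did both with upper-quartile scaling (0.29, adjusted p = 0.0592).

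Egr1, a zinc finger factor induced through the MAP kinase cascade and SRF, rose with IFN-γ at 12 hrs. Untreated wells measured 42.5, 44.8, 39.6 and 32.7 CPM, and IFN-γ wells 61.9, 64.8, 89.7 and 51.5 CPM. All 4 IFN-γ wells were higher and the log2FC was 0.71 ± 0.16 (adjusted p = 0.000375). With both ligands Egr1 measured 90.4, 64.2, 76.3 and 78.1 CPM, a log2FC of 0.93 ± 0.15 against untreated (adjusted p = 9.92e-07) and 1.08 ± 0.16 against Activin-A alone (adjusted p = 3.21e-08). With Activin-A alone it measured 34.5, 45.5, 32.1 and 33.5 CPM, which overlapped the untreated wells.

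At 4 hrs Egr1 was at 134, 146, 130 and 130 CPM in untreated wells and 146, 135, 131 and 140 CPM with IFN-γ, so these groups overlapped. With Activin-A it measured 162, 110, 122 and 113 CPM, where well 1 was above and the other 3 were below all untreated wells. The log2FC was -0.05 with this well (adjusted p = 0.917) and -0.22 without it (adjusted p = 0.444). With both ligands it measured 165, 158, 186 and 161 CPM, above all untreated and all IFN-γ wells. The log2FC was 0.32 ± 0.10 against untreated (adjusted p = 0.0387) and 0.37 ± 0.10 against Activin-A (adjusted p = 0.0134), but 0.27 ± 0.10 against IFN-γ did not pass (adjusted p = 0.288). By DESeq2 the first 2 did not pass either (adjusted p = 0.149 and 0.0539), and the first did not with upper-quartile scaling (adjusted p = 0.0973). The call against untreated was lost without any one of untreated wells 1, 3 and 4 or wells 1, 3 and 4 of both (adjusted p = 0.0520 to 0.170), and that against Activin-A without its well 2, 3 or 4 or well 3 of both (adjusted p = 0.0554 to 0.0868). Without well 1 of Activin-A, in which Egr1 was at 162 CPM, the log2FC of both ligands against Activin-A was 0.54 (adjusted p = 5.18e-05). The effect of IFN-γ on Egr1 was larger at 12 than at 4 hrs by 0.68 ± 0.19 on the log2 scale, which missed the threshold in the fit of all 32 wells (adjusted p = 0.0855) and passed in a fit of only the 16 wells compared (0.66, adjusted p = 0.0471). It also passed without IFN-γ well 4 at 12 hrs (0.80, adjusted p = 0.0234).

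Atf3, encoding a stress-induced bZIP factor that represses or activates with its partner, was scarce, with 2 to 16 counts in a well. At 4 hrs untreated wells held 6, 7, 5 and 3 counts and IFN-γ wells 12, 15, 12 and 13 counts, or 5.12 ± 1.56 against 14.1 ± 2.75 CPM (SD, n = 4). The groups did not overlap, and the log2FC was 1.41 ± 0.36 (adjusted p = 0.00614). It passed without any single well. With Activin-A and with both ligands at 4 hrs all wells were also above the untreated ones, and neither passed (log2FC 0.82 ± 0.38 and 0.96 ± 0.37, adjusted p = 0.387 and 0.124). At 12 hrs IFN-γ wells held 11, 16, 15 and 15 counts and untreated wells 15, 10, 2 and 9 counts, and although all 4 IFN-γ wells were higher in CPM the log2FC of 0.75 ± 0.33 did not pass (adjusted p = 0.164).

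Ier2 and Ier3 are short immediate-early genes, of which Ier3 is known for effects on apoptosis. Neither passed in a treatment comparison at either time. Against untreated wells Ier2 was nearest with Activin-A at 4 hrs, where wells measured 114, 115, 95.2 and 94.3 CPM against 64.2, 85.6, 90.0 and 92.9 CPM in untreated wells. These did not overlap (log2FC 0.34 ± 0.12, adjusted p = 0.198). Over the 10 treatment comparisons the adjusted p of Ier2 was at least 0.173 and that of Ier3 at least 0.192. For Ier2 with IFN-γ at 12 hrs the log2FC was -0.32 (adjusted p = 0.247), and leaving out 1 well it ran from -0.48 without untreated well 1, which passed (adjusted p = 0.0432), to -0.17 without IFN-γ well 4 (adjusted p = 0.677). For Ier3 with both against Activin-A at 4 hrs it was -0.38 (adjusted p = 0.192), and ran from -0.53 without well 3 of both, which passed (adjusted p = 0.0458), to -0.24 without well 2 of both (adjusted p = 0.567).

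**Figure D2:**
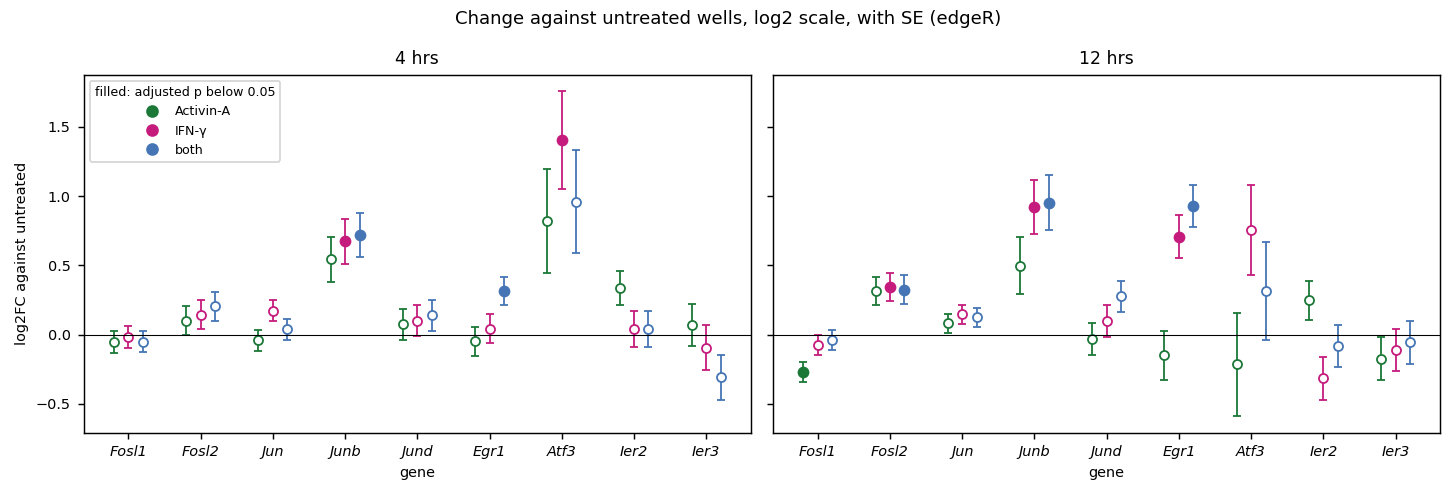
Change of the 9 tested genes against untreated wells on the log2 scale (vertical axis) with Activin-A, IFN-γ or both, at 4 hrs (left) and 12 hrs (right), with SE bars from edgeR. Filled points passed at an adjusted p below 0.05: Junb stands at 0.67 with IFN-γ at 4 hrs and 0.92 at 12 hrs, and with Activin-A Fosl1 at 12 hrs is the filled point, at -0.27.

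Counted together, IFN-γ changed 2 of the 9 tested genes at 4 hrs (Junb and Atf3), where 5.06% of all genes tested passed, and 3 at 12 hrs (Junb, Egr1 and Fosl2), where 9.25% passed. All were higher. The median log2FC of the 9 genes was 0.10 and 0.15, beside -0.01 at both times over all genes tested. The median with both ligands was 0.14 and 0.28, and with Activin-A 0.08 and -0.03. Both ligands changed 2 at 4 hrs (Junb and Egr1, background 7.29%) and 3 at 12 hrs (Junb, Egr1 and Fosl2, background 9.84%). Against Activin-A alone, both ligands changed Egr1 at 4 hrs (background 6.07%) and Egr1 and Fosl1 at 12 hrs (background 9.62%).

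Activin-A changed 0 of the 9 genes at 4 hrs by edgeR (background 1.64%), with 3 at an unadjusted p below 0.05, as had 11.3% of all genes, and 0 by DESeq2. Changes before 4 hrs were not measured. At 12 hrs it changed 1, Fosl1 (background 2.41%). Added to IFN-γ, it changed 0 at 4 hrs by edgeR (background 0.81%, 1 gene and 9.3% of all genes at an unadjusted p below 0.05) and 0 at 12 hrs (background 1.03%, 0 genes and 10.3% of all genes at an unadjusted p below 0.05), with 0 by DESeq2 at both times. The interaction asks whether the effect of both ligands departs from the sum of the single ones on the log2 scale. By edgeR 0 of the 9 genes passed at 4 hrs (background 0%), with 3 at an unadjusted p below 0.05, and 0 at 12 hrs (background 0.0111%), with 2, and DESeq2 gave 0 at both times. Of all genes, 5.53% and 6.82% had an unadjusted p below 0.05. The largest of these values were for Atf3 at 4 hrs, at -1.26 ± 0.49 (adjusted p = 0.824), and for Junb at 4 hrs, at -0.50 ± 0.22 (adjusted p = 0.858).

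Egr1, Junb and Ier2 were lower at 12 than at 4 hrs in all 4 treatments. In untreated wells Egr1 went from a mean of 135 ± 7.84 CPM at 4 hrs to 39.9 ± 5.24 CPM at 12 hrs (SD, n = 4), and the groups did not overlap. The log2FC was -1.74 ± 0.13 in untreated wells (adjusted p = 3.80e-18), -1.83 ± 0.14 under Activin-A, -1.06 ± 0.12 under IFN-γ and -1.11 ± 0.12 under both, and all passed. Junb fell in all 4 treatments, by 0.95 on the log2 scale in untreated wells, 0.98 under Activin-A, 0.68 under IFN-γ and 0.71 under both (adjusted p = 0.00106, 2.31e-05, 0.00294 and 0.00218). Junb wells at 12 hrs lay below those at 4 hrs without overlap in each treatment other than untreated, where 3 of the 4 wells did. The mesenchymal marker sum also differed between times in untreated wells and with both ligands. It was 43.9 to 58.9 CPM in untreated wells at 4 hrs and 59.4 to 67.8 CPM at 12 hrs. With both ligands it was 47.8 to 74.3 and 40.7 to 47.6 CPM, and Col1a1 fell with time there (-0.68, adjusted p = 0.0128). With Activin-A or IFN-γ alone the ranges of the times overlapped. The part of this sum in the changes from 4 to 12 hrs was not tested.

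Ier2 measured 64.2, 85.6, 90.0 and 92.9 CPM in untreated wells at 4 hrs and 41.7, 68.1, 70.5 and 58.5 CPM at 12 hrs. It fell by 0.49 in untreated wells (adjusted p = 0.0224), by 0.57 under Activin-A, by 0.83 under IFN-γ and by 0.61 under both (adjusted p = 0.00132, 2.27e-05 and 0.00284). The untreated change did not pass by DESeq2 (adjusted p = 0.0586) or without untreated well 1 at 12 hrs (log2FC -0.33, adjusted p = 0.255) or untreated well 2, 3 or 4 at 4 hrs (adjusted p = 0.0582 to 0.0976). With Activin-A, Ier3 fell by 0.60 (adjusted p = 0.00698), from 76.5, 65.8, 75.8 and 59.0 CPM to 39.4, 42.6, 55.9 and 49.6 CPM, but not without well 1 at 12 hrs (-0.52, adjusted p = 0.0590). Fosl1 fell by 0.28 (adjusted p = 0.00865) in the same comparison, but not without well 1 of Activin-A at 4 hrs (-0.20, adjusted p = 0.129) or in a fit of only the samples compared (-0.28, adjusted p = 0.0600). The number of genes that fell was 3 in untreated wells (background 4.9%), 5 under Activin-A (6.97%), 3 under IFN-γ (8.41%) and 3 under both (7.1%), with medians of -0.17, -0.30, -0.12 and -0.05 over the 9 genes. No call was of a rise. Ccdc85b, which overlaps Fosl1 on the opposite strand, rose with time under Activin-A (log2FC 0.48, adjusted p = 0.00255), IFN-γ (0.46, adjusted p = 0.00463) and both (0.43, adjusted p = 0.0149). In untreated wells Ccdc85b had a log2FC of 0.34 (adjusted p = 0.0567), and its part in the Fosl1 counts was not tested.

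**Figure D3:**
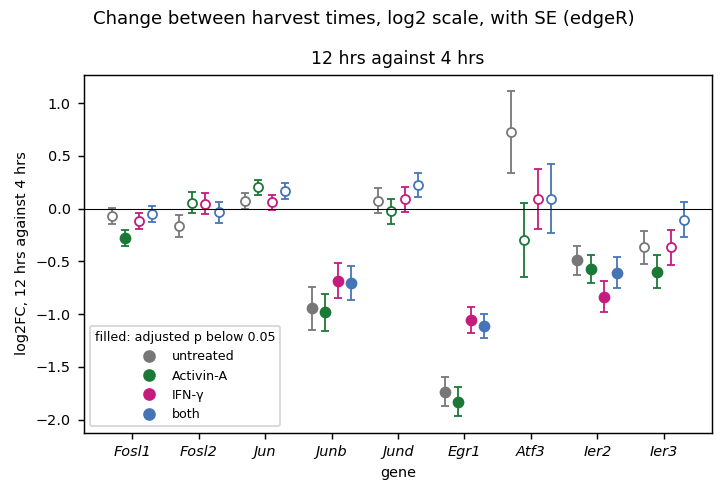
Change of the 9 tested genes from 4 to 12 hrs on the log2 scale (vertical axis) in untreated wells and with Activin-A, IFN-γ or both, with SE bars from edgeR and filled points at an adjusted p below 0.05. Egr1, Junb and Ier2 are filled and below 0 in all 4 treatments, Egr1 at -1.74 in untreated wells and -1.06 with IFN-γ.

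Whether a treatment effect differed between 12 and 4 hrs was tested on all 32 wells. By edgeR 0 of the 9 genes passed for Activin-A (background 0.0214%), IFN-γ (0.579%), both (0.9%) or Activin-A on top of IFN-γ (0.0964%), and DESeq2 gave 0 for each. At an unadjusted p below 0.05 there was 1 gene in each of the first 3, which was Fosl1 for Activin-A and Egr1 for IFN-γ and for both (0.62 ± 0.19 on the log2 scale, adjusted p = 0.106), and 0 in the last. Of all genes this held for 6.1%, 7.38%, 8.79% and 6.67% in the same order. In a fit of only the samples compared, Egr1 passed for both (0.62, adjusted p = 0.0434), as it did for IFN-γ.

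Other genes of these families were followed through lists. Of 14 other AP-1 and bZIP genes tested, IFN-γ raised 3 at 4 hrs and 3 at 12 hrs, with a list median of -0.02 and 0.11, where 5.06% and 9.25% of all genes passed in either direction. Batf2, a bZIP partner of JUN proteins known to respond to interferon, rose from 4.98 ± 1.26 to 55.6 ± 9.21 CPM at 4 hrs and from 3.05 ± 0.67 to 114 ± 15.1 CPM at 12 hrs (SD, n = 4), with a log2FC of 3.50 ± 0.25 and 5.14 ± 0.23 (adjusted p = 2.03e-17 and 3.75e-38). Cebpb, a bZIP factor of inflammatory gene expression, rose by 0.83 ± 0.09 at 4 hrs and 0.74 ± 0.08 at 12 hrs, and fell with Activin-A at 4 hrs (-0.35 ± 0.09, adjusted p = 0.0311). Its Activin-A wells at 4 hrs measured 126, 161, 163 and 179 CPM, all below the untreated wells (184 to 218 CPM). The lowest of them was well 1, which stands apart, and a value without it is not given. Mafk, a small MAF protein gene, rose with IFN-γ at 12 hrs (0.77 ± 0.18, adjusted p = 0.00131), and Atf4, the factor of the amino acid response, at 4 hrs (0.27 ± 0.07, adjusted p = 0.00884). With both ligands Batf2 rose by 3.33 at 4 hrs and 4.92 at 12 hrs.

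Of the other immediate-early genes, 23 were tested at 4 hrs and 21 at 12 hrs, with list medians of -0.004 and 0.17 with IFN-γ and 0.06 and 0.10 with Activin-A. IFN-γ raised 2 and lowered 1 at 4 hrs (background 5.06%). Zfp36, whose protein speeds the decay of AU-rich mRNAs, rose from 31.7 ± 4.50 to 63.2 ± 7.80 CPM (log2FC 0.98 ± 0.16, adjusted p = 2.83e-06), and Csrnp1 rose with a log2FC of 1.33 ± 0.28 (adjusted p = 0.000564). Sgk1, a serum- and glucocorticoid-induced kinase gene, fell by 0.35. At 12 hrs IFN-γ (background 9.25%) raised 6, among them Csrnp1 by 1.67, Zfp36 by 1.08, Ptgs2, the cyclooxygenase-2 gene, by 0.54, and Ccn1, a matricellular protein gene, by 0.44, and lowered 1. Activin-A raised 4 at 4 hrs and 5 at 12 hrs (background 1.64% and 2.41%). Ccn1 rose from 176 ± 9.97 to 385 ± 30.1 CPM at 4 hrs (log2FC 1.14 ± 0.09), and Gadd45a and Gadd45b, genes of growth arrest and stress, rose by 0.51 and 0.90. Added to IFN-γ, Activin-A raised Ccn1 by 0.83 ± 0.09 at 4 hrs and 0.69 ± 0.08 at 12 hrs, and this was the 1 gene of the list to pass at each time.

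**Figure D4:**
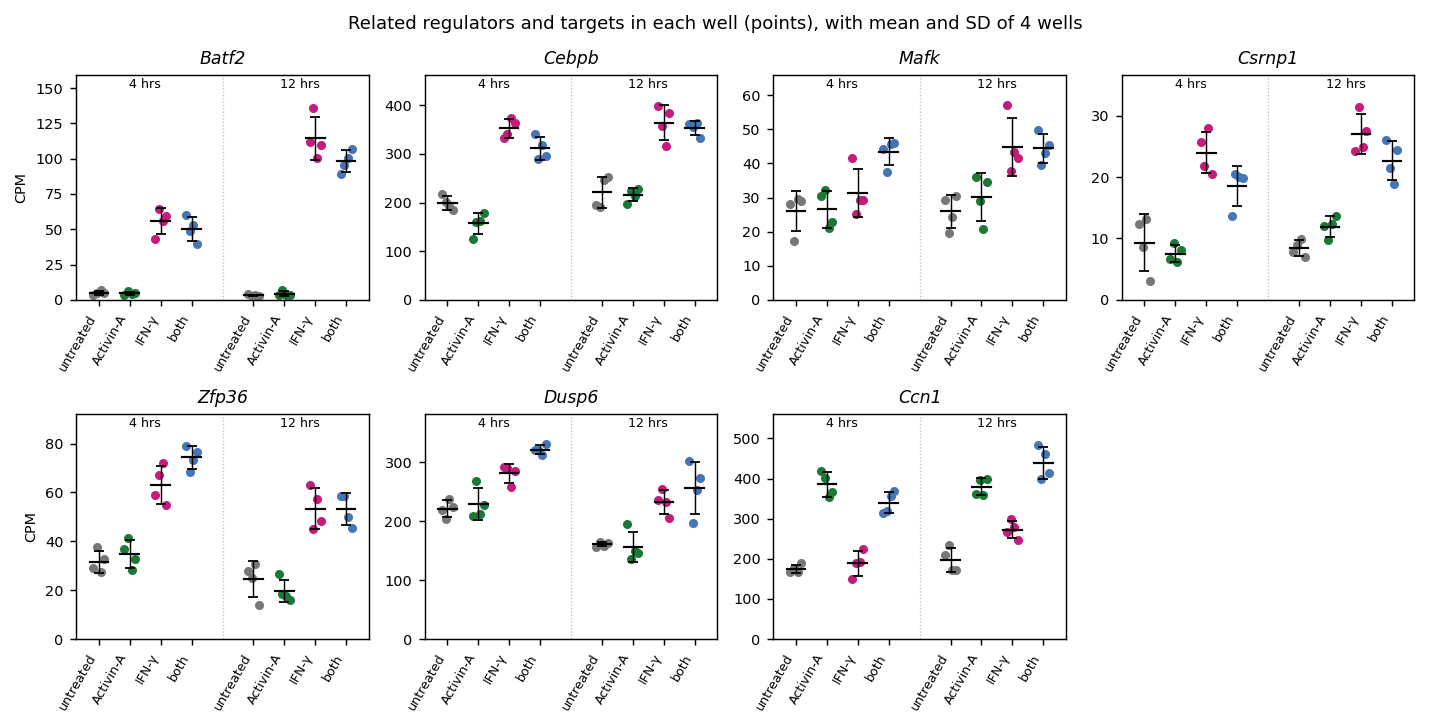
Level in CPM (vertical axis, linear, from 0) of 4 bZIP or immediate-early regulators raised by IFN-γ at 12 hrs (Batf2, Cebpb, Mafk, Csrnp1), the mRNA decay gene Zfp36, the phosphatase gene Dusp6 and the Activin-A responsive gene Ccn1 in 4 wells of each group (points), with mean and SD. Batf2 has a mean of 3.05 CPM in untreated wells and 114 CPM with IFN-γ at 12 hrs.

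Of 17 tested genes of the SRF, ternary complex factor and MAP kinase list, 1 passed with IFN-γ at 12 hrs (list median 0.05), where 9.25% of all genes passed. It was Map2k1, encoding the kinase MEK1, which rose by 0.37 ± 0.09 (adjusted p = 0.000851). Of the feedback genes of this cascade, 10 were tested at 4 hrs and 11 at 12 hrs. The list medians were -0.002 and 0.10 with IFN-γ and -0.05 and -0.02 with Activin-A. IFN-γ raised 1 and lowered 1 at 4 hrs (background 5.06%) and raised 1 at 12 hrs (background 9.25%). Activin-A lowered 1 at 4 hrs (background 1.64%) and raised 1 and lowered 1 at 12 hrs (background 2.41%). Dusp6, an ERK phosphatase gene, rose with IFN-γ by 0.36 ± 0.08 at 4 hrs and 0.52 ± 0.09 at 12 hrs (adjusted p = 0.00145 and 5.09e-06), and Spry4 fell at 4 hrs (-0.41 ± 0.13, adjusted p = 0.0441). With Activin-A Spry2 fell at 4 hrs (-0.44 ± 0.12, adjusted p = 0.0310), and at 12 hrs Dusp1, another MAP kinase phosphatase gene, rose by 0.74 ± 0.14 and Spred1 fell by 0.34.

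Of genes known from textbooks as AP-1 targets, 14 were tested at each time. Activin-A raised 3 at 4 hrs and 4 at 12 hrs (background 1.64% and 2.41%), with list medians of 0.20 and 0.06. Itgav, an integrin subunit gene, rose by 0.46 at 4 hrs and 0.53 at 12 hrs. IFN-γ lowered 1 at 4 hrs (background 5.06%), Hbegf, an EGF receptor ligand gene, by 0.26. At 12 hrs (background 9.25%) it raised 1, Ccnd1, the cyclin D1 gene, by 0.26. It lowered 2 at that time, Spp1, the osteopontin gene, by 0.40 and Itgav by 0.31. The list medians with IFN-γ were -0.002 and -0.07. Activin-A raised Hbegf by 0.26 at 4 hrs and Spp1 by 0.25 at 12 hrs.

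Between 4 and 12 hrs genes of these lists changed in both directions, and those named here were chosen after their values were seen because they passed in all 4 treatments. Egr3, a relative of Egr1, fell by 1.67 in untreated wells, from 26.8 ± 3.42 to 8.27 ± 3.46 CPM, and by 1.52 under Activin-A, 1.34 under IFN-γ and 1.71 under both. Gadd45a, of the same list, rose by 0.61 in untreated wells. Of the AP-1 and bZIP list, Jdp2, whose protein dimerises with JUN proteins, rose by 0.70 and Atf5 by 0.56, and of the AP-1 targets Timp1 fell by 0.58 in untreated wells. The feedback genes Errfi1, Dusp5 and Dusp6 fell in all 4 treatments, by 0.33, 0.51 and 0.46 in untreated wells. Of 9 genes of the Atf4 and Atf3 stress program, 4 rose in untreated wells, where 4.9% of all genes passed in either direction, and Atf4, Asns, Chac1 and Trib3 rose in all 4 treatments. Atf4 rose by 0.74 ± 0.07 and Asns, asparagine synthetase, by 1.31 ± 0.09 in untreated wells. Atf3 itself had a log2FC of 0.73 there and did not pass (adjusted p = 0.318).

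The genes whose levels over the 32 wells were most like those of the called members were sought by Pearson's r of log2 CPM among 8628 genes with a mean of at least 10 counts. These values are a description over 8 groups, in which time and treatment differences are shared. Egr1 was most like Nab2, which encodes a corepressor of EGR proteins (r = 0.93), then Id3 (0.90) and Mt1 (0.89). Junb was most like Errfi1 (0.81), Ptgs2 (0.78) and Map2k1 (0.77), and Atf3 like Cdc42se2 (0.75), Ston2 (0.74) and Tlr3 (0.74). Fosl1 was most like Znrf1 (0.68), Spred1 (0.67) and Cdo1 (0.66), and Fosl2 like Arf3 (0.65), Tmcc3 (0.65) and Adamts1 (0.64).

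Within groups the members did not move together from well to well beyond what a permutation test gave. Deviations from the group means were compared for 36 pairs of the 9 tested genes over 32 wells, with 100000 permutations within groups. The median Pearson r was -0.03, and 0 pairs passed at an adjusted p below 0.05. The strongest pair was Jun and Egr1 (Pearson r = -0.61, permutation p = 0.00449, adjusted p = 0.162, Spearman rho = -0.52, permutation p = 0.00917), and without the 2 wells farthest from the median of Jun r was -0.55. Within 4 hrs r was -0.67 and within 12 hrs -0.59. Among positive pairs the strongest was Fosl2 and Egr1 (Pearson r = 0.46, permutation p = 0.0112, adjusted p = 0.201). Its Spearman rho was 0.49 (permutation p = 0.0099), and r was 0.47 within 4 hrs and 0.48 within 12 hrs. Against the total counts of the well, 1 of the 9 genes passed, with adjustment over these 9. The share over all genes was not computed, so whether Ier2 stands out in this was not tested. For Ier2 the Pearson r was -0.55 (permutation p = 0.003, adjusted p = 0.027) and the Spearman rho -0.59 (permutation p = 0.00308, adjusted p = 0.0277), and r was -0.46 without the 2 farthest wells, -0.52 within 4 hrs and -0.65 within 12 hrs. The part of depth in the Ier2 changes was not tested, and the median total of a group lay between 898254 and 1116083 counts.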

How the data were processed

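BRB-seq libraries of 32 wells of YUMM3.3 cells were used. The authors aligned reads with STAR 2.7.10b to GRCm39 and counted them with featureCounts, per the labels, and the deposited values are raw counts per gene. The annotation, the strand setting and any collapse of molecular identifiers are not given in the sources used here, so counts may not be independent molecules, and the limit from 3 counts covers counting error only. Symbols matched 12437 of 12451 identifiers through GENCODE M21.

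Counts were tested with edgeR 4.0.16 in R 4.3.3 (filterByExpr, TMM, quasi-likelihood test, Benjamini-Hochberg adjustment over all genes), with 16 wells per fit at each time and 32 wells for contrasts across times. DESeq2 1.42.0, RLE and upper-quartile scaling, other filters, thresholds, samples and a replicate block were alternatives, and each well was left out in turn. CPM used TMM over 32 wells, and log2 CPM a prior count of 2. The pipeline was tested on simulated data.

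All 10 members were named. From each list of related genes, at most 4 called genes per treatment comparison by smallest p were eligible, and for each member called with a treatment the 3 genes most like it. The members and lists were chosen with earlier results of these data known. Promoters are from RefSeq (GRCm38.p6) and positions from GRCm38, which is not the build of the files.

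Some genes of the lists are not reported here by name.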

Additional observations from a re-analysis of the deposited data

Results flagged for a closer look

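The 4 wells of each group were searched for a value far from the others, by Dixon's test at the 95% level, for 10 genes in 8 groups, and 8 of 80 combinations stood out. Chance gives about 1 in 20. For Fos, well 3 of Activin-A at 4 hrs was high at 6.17 CPM (7 counts) and well 3 of both ligands at 12 hrs was at 0 CPM. Fosl1 was high in well 1 of Activin-A at 4 hrs (348 CPM, the others 279 to 289 CPM), which is the library that stood apart. Fosl2 was low in untreated well 4 at 12 hrs (86.5 CPM, the others 110 to 112 CPM), and its calls against untreated at that time do not hold without this well. Jun was low in well 3 of IFN-γ at 12 hrs (347 CPM, the others 426 to 434 CPM). Junb was high in well 4 of Activin-A at 12 hrs (49.6 CPM, the others 28.1 to 31.0 CPM). Without it both ligands against Activin-A gave a log2FC of 0.65 for Junb (adjusted p = 0.0191 by edgeR) in place of 0.45 (adjusted p = 0.119). Jund was low in well 4 of both ligands at 4 hrs (92.9 CPM) and high in well 3 of both ligands at 12 hrs (166 CPM).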

How the results depend on the processing

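Of 57 member changes with an unadjusted p below 0.05, 28 passed in the edgeR fit, and none changed direction in 1057 values under other settings. These values include the stricter thresholds, where the log2FC is that of the main fit and cannot change direction. Many of the others left out 1 well, and the changes were picked by their p, so a change of direction was unlikely from the start. The number of members called with both ligands against untreated at 4 hrs went from 2 to 1 by DESeq2, with upper-quartile scaling, at an adjusted p below 0.01 and with an absolute log2FC of at least 0.5. For both against Activin-A it went from 1 to 0 at 4 hrs by DESeq2 and under both stricter thresholds, and from 2 to 1 at 12 hrs under these and with upper-quartile scaling. For Activin-A at 12 hrs it went from 1 to 0 by DESeq2 and under both stricter thresholds. At 4 hrs Activin-A went from 0 to 1 (Junb) without a filter and with the replicate block, and IFN-γ from 2 to 1 where at least 10 counts were required in every sample, since Atf3 was then not tested. The effects of IFN-γ and of both at 12 minus 4 hrs went from 0 to 1 (Egr1) with only the samples compared. The cause was not tested in the other cases. The replicate block changed no other call of a member. Same-numbered wells were no more alike than others (mean r of deviations -0.000229 against 7.63e-05), so the numbers were not used as pairs. With RLE scaling or all 32 samples no call changed. Of 80 group means, 1 moved by 1 SD or more with CPM of raw totals.

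Leaving out each well in turn, the members called ranged from 0 to 1 for Activin-A at 4 and 12 hrs, 1 to 2 for IFN-γ and for both at 4 hrs, 2 to 4 for IFN-γ and 2 to 3 for both at 12 hrs, 0 to 1 and 1 to 3 for both against Activin-A at 4 and 12 hrs, 2 to 3 and 4 to 6 for 12 against 4 hrs in untreated and Activin-A wells, 3 to 3 in the others, 0 to 1 for the IFN-γ effect at 12 minus 4 hrs and 0 to 0 elsewhere. The call of Egr1 with both ligands at 4 hrs held in 2 of 8 such refits against untreated and in 4 of 8 against Activin-A, and those of Junb and Egr1 with IFN-γ at 12 hrs in each of 8. At 654539 counts, 3 counts are 4.58 CPM, which limits Fos and Atf3.

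Over all genes, counts moved by over 1.5 times under these settings. DESeq2 called 84 genes in place of 150 for Activin-A at 4 hrs and 136 in place of 216 at 12 hrs, 44 in place of 74 and 61 in place of 92 for both against IFN-γ at 4 and 12 hrs, 581 in place of 883 for both and 549 in place of 863 for both against Activin-A at 12 hrs, and 284, 410 and 501 in place of 457, 650 and 785 for 12 against 4 hrs in untreated, Activin-A and IFN-γ wells. At an adjusted p below 0.01 these were 86 (Activin-A, 4 hrs), 40 and 51 (both against IFN-γ), 558 (both against Activin-A, 12 hrs), 234, 359 and 434, with 361 in place of 663 for both at 12 against 4 hrs. With an absolute log2FC of at least 0.5 they were 87 and 103 (Activin-A), 49 and 39, 544, 556, 216, 322, 423 and 359 in the same order, and 529 in place of 830 for IFN-γ at 12 hrs. With only the samples compared, both against IFN-γ at 4 hrs gave 120 and 12 against 4 hrs under Activin-A 423. The interactions went from 0 to 1 at 4 hrs (no filter, all 32 samples) and from 1 to 8 (no filter) or 0 (DESeq2, 0.01) at 12 hrs. The differences of effects between times went from 2 to 1, 1 and 0 for Activin-A and from 9 to 3 and 3 for Activin-A on IFN-γ (0.01, DESeq2 and the log2FC limit where moved), and from 54 to 32 and 84 to 45 for IFN-γ and both (0.01). Leaving out 1 well moved 74 to 47 for both against IFN-γ at 4 hrs (without IFN-γ well 2 or well 4 of both, and to 49 without IFN-γ well 1), 457 to 302 for untreated wells at 12 against 4 hrs (without well 1 at 12 hrs) and 54 to 35 for the IFN-γ effect (without untreated well 4 at 4 hrs). The lowest and highest were 0 and 1 for the interaction at 4 hrs (1 without Activin-A well 1), 0 and 6 at 12 hrs (moved by 14 of 16 wells), 0 and 3 for the Activin-A effect (5 of 16) and 3 and 18 for Activin-A on IFN-γ (9 of 16).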
